A study of Mus musculus with 6 samples.

Results

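The genes described here are 8 genes of sterol synthesis and its control, Srebf2, Insig1, Hmgcs1, Idi1, Fdps, Fdft1, Sqle and Lss. They were chosen by gene symbol from 21878 rows per library, and all 8 passed the filter on low values that left 10620 genes for testing. RNA was sequenced from sorted bone marrow cells of wild-type mice that the labels call LT-HSCs (long-term hematopoietic stem cells), which can sustain blood formation for life. The sort took lineage-negative cells with Kit and Sca1 and without CD34 and CD135, the product of Flt3. For 3 months, 3 samples' mice had eaten a serine/glycine-free diet (SGFD) and those of 3 others a control diet (CD). Whether a sample is 1 mouse or several pooled mice is not given in the labels, and the p-values measure only the spread between these samples, which may be technical.

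Cholesterol is built from acetyl-CoA through mevalonate, isoprenyl diphosphates, squalene and lanosterol. SREBP2, the product of Srebf2, is a transcription factor made as a precursor in the endoplasmic reticulum membrane. When sterols are low, the escort protein SCAP carries it to the Golgi, where proteases release its active part. When sterols are high, INSIG proteins hold SCAP and the precursor back. Nearly every enzyme of the pathway is a known SREBP2 target, and so are Insig1 and Srebf2 itself, which makes the set a common readout of sterol supply.

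Of the 8 genes 5 fell with SGFD, namely Srebf2, Insig1, Idi1, Sqle and Lss, and 1, Fdps, rose. Hmgcs1 and Fdft1 did not pass an adjusted p of 0.05. Of all tested genes, 59.4% passed in either direction, 41.8% lower and 17.7% higher, and every count of genes that fell or rose below is to be read against these shares. Expression is given as FPKM, that is, fragments relative to the length of the gene and the depth of the library. The test was limma on log2(FPKM + 1) with Benjamini-Hochberg adjustment over all 10620 genes, and fold changes are SGFD over CD on that scale, with their standard error (SE). The median log2 fold change was -0.38 over the 8 genes and -0.13 over all tested genes. In bulk samples such as these, fewer cells of a type and less RNA per cell cannot be told apart.

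**Figure D1:**
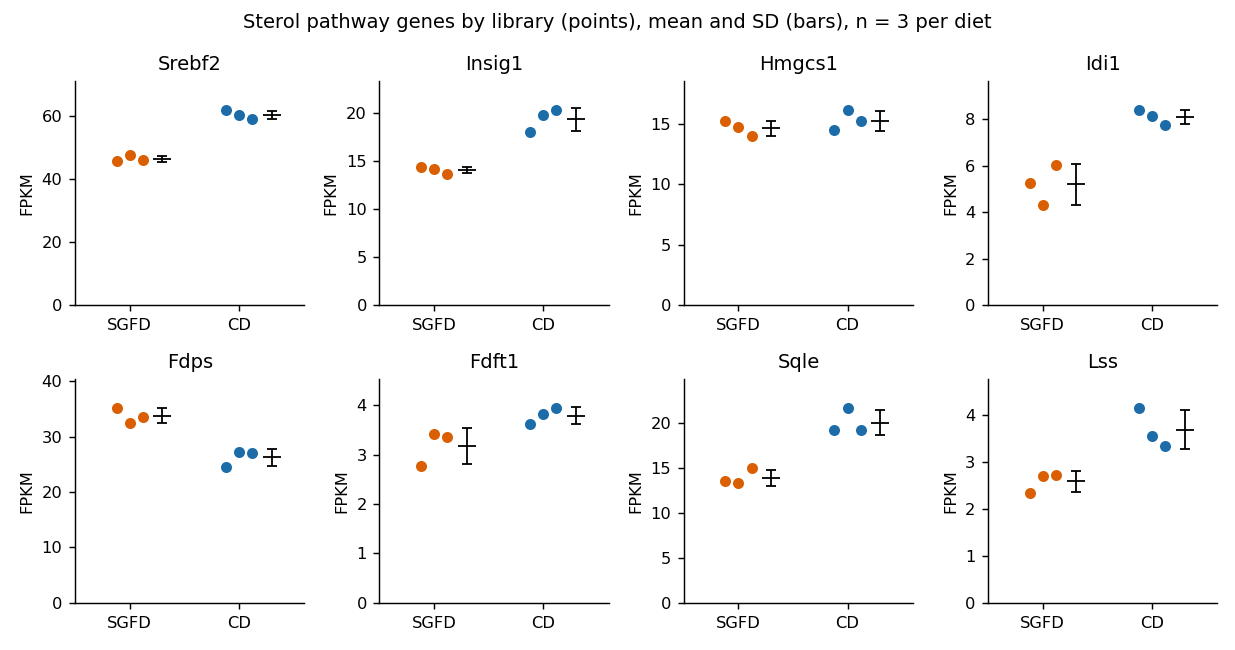
FPKM (y axis, from 0) of the 8 genes in each library (points, 3 with SGFD at left and 3 with CD at right), with the mean and SD of each diet as bars. The points of the diets are apart in every panel but Hmgcs1; Fdps is the gene that is higher with SGFD.

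Recovered whole fragments came to between 18208509 and 19304007 per library, and FPKM summed to between 464222 and 485048 with SGFD and between 427769 and 433592 with CD. Of 10 granulocyte progenitor markers tested 9 rose, with summed levels of 4677 to 5101 FPKM with SGFD and 1715 to 1756 FPKM with CD. Of 11 tested monocyte markers 10 rose (414.6 to 439.3 FPKM with SGFD and 234.7 to 240.5 FPKM with CD over 12 listed genes), and the summed level of 14 macrophage markers was 5.05 to 5.49 FPKM with SGFD and 20.8 to 22.4 FPKM with CD. All 8 macrophage markers tested fell, but 6 of them passed the filter through the CD libraries alone, so the direction of those 6 was fixed by the filter. Of 13 tested LT-HSC markers 11 fell, with summed levels over 14 listed genes of 102.9 to 107.2 FPKM with SGFD and 193.6 to 204.2 FPKM with CD. Of 8 tested neutrophil markers 7 rose and 1 fell, with 4 admitted through 1 diet alone, and of 6 tested B cell markers 5 fell, with 2 admitted through 1 diet alone, so these counts too are partly fixed by the filter. Of the other lists, 4 of 7 basophil and mast cell markers rose and 1 fell, 1 of 4 erythroid markers rose and 3 fell, and 1 of 6 megakaryocyte markers rose and 3 fell. No gene of these lists was at 0 in every library except Gp6 of the megakaryocyte list. The mRNAs of CD34 and CD135, which the sort selects against, were abundant in all 6 libraries, at 418.9 to 435.0 FPKM for Cd34 and 86.9 to 94.3 FPKM for Flt3 with SGFD, and at 461.5 to 488.4 FPKM for Cd34 and 112.4 to 114.7 FPKM for Flt3 with CD. Of the genes the sort selects for, Kit was at 71.4 ± 2.06 FPKM with SGFD and 121.7 ± 0.843 FPKM with CD (SD, n = 3 each; limma, log2 fold change -0.76, adjusted p = 2.59e-07) and Ly6a, which encodes Sca1, at 58.5 ± 4.89 FPKM with SGFD and 66.7 ± 2.89 FPKM with CD (adjusted p = 0.0204). These marker levels moved with the diet in the same libraries as the sterol genes, and their part in the results below was not tested.

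Srebf2, the gene of the transcription factor, was the most abundant of the 8. It had 45.9, 47.7 and 46.2 FPKM in the SGFD libraries and 61.9, 60.3 and 59.1 FPKM in the CD libraries. Every SGFD value lay below every CD value. Its mean was 46.6 ± 0.962 FPKM with SGFD and 60.45 ± 1.41 FPKM with CD (SD, n = 3 each), a ratio of 0.771. The log2 fold change was -0.37 (SE 0.04; limma, adjusted p = 6.16e-05). Between 4842 and 6580 recovered fragments stood behind each value, so counting alone gave an error of at most 1.44%; fragments are recovered only up to a factor per gene, on which such errors depend. The log2 fold change of Srebf2 was -0.245 with median-ratio scaling of the libraries and -0.13 with a trend over transcript length removed, and it passed in both (adjusted p = 0.000877 and 0.0259).

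Insig1 encodes the retention protein that is itself induced by SREBP2. Its values were 14.4, 14.1 and 13.7 FPKM with SGFD and 18.0, 19.7 and 20.3 FPKM with CD. The SGFD libraries lay close together and below all CD libraries. The means were 14.05 ± 0.342 FPKM with SGFD and 19.3 ± 1.18 FPKM with CD (SD, n = 3 each), and the log2 fold change was -0.43 (SE 0.06; limma, adjusted p = 0.000229). The fall was present under every setting tried, at -0.57 to -0.31.

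SREBPs bind sterol regulatory elements in the promoters of their targets, often near a CCAAT box, the site of the factor NF-Y. RefSeq promoters of the build GRCm38.p6 were found for 5 of the 8 genes, Srebf2, Insig1, Hmgcs1, Idi1 and Lss. The 250 bases before the annotated start site are printed for the regulator, for its retention partner, for an enzyme that did not pass and for one that fell. They are written 5′ to 3′ on the plus strand, which is the strand of all 4 genes. Capitals mark the letters TCACNCCAC, a form of the sterol regulatory element, and CCAAT, each searched on both strands; the 2 motifs share no bases in these promoters. The window of Srebf2 lies at chr15:82147019-82147268, Insig1 at chr5:28071162-28071411, Hmgcs1 at chr13:119690101-119690350 and Idi1 at chr13:8885356-8885605. Of the other genes, Lss lies at chr10:76531565-76557139 and Sqle at chr15:59315092-59331193 on the plus strand, and Fdps at chr3:89093588-89101967 and Fdft1 at chr14:63145150-63181687 on the minus strand.
Srebf2: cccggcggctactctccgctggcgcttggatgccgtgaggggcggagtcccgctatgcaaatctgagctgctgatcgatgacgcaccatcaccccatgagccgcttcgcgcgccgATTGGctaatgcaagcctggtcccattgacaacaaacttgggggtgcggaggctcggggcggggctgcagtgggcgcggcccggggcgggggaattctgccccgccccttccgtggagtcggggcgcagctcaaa
Insig1: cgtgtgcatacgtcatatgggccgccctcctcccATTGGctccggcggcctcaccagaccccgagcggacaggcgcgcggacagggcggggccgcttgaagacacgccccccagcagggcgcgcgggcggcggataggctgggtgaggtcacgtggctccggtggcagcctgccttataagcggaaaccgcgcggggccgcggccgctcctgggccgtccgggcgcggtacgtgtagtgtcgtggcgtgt
Hmgcs1: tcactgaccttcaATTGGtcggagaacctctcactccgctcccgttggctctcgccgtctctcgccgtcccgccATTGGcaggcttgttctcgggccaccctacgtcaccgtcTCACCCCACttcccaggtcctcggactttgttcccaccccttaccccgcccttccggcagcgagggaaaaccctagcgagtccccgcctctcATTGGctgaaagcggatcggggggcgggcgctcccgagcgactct
Idi1: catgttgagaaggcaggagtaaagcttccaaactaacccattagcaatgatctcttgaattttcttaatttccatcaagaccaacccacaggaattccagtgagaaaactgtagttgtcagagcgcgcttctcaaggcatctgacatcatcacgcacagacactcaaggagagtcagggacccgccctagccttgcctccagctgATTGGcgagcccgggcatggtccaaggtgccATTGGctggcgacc

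TCACNCCAC was found in 1 of the 5 promoters, that of Hmgcs1, where TCACCCCAC begins at position -137, counted back from the start site. Of all 32851 promoters of this length in the table, 1.05% held it. CCAAT, in each case read as ATTGG on the strand of the gene, was found in all 5 and in 33.8% of all promoters. Hmgcs1 had 3 of them and Idi1 had 2, the nearest at -45 in Hmgcs1 and at -14 in Idi1. These are matches of letters, and no binding was measured. Other forms of the sterol regulatory element were not searched, so their absence is not shown for any of the 5 promoters.

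Hmgcs1, the gene with the match to TCACNCCAC, encodes the cytosolic synthase that makes HMG-CoA early in the pathway. Its values were 15.2, 14.7 and 14.0 FPKM with SGFD and 14.5, 16.1 and 15.2 FPKM with CD, and the diets overlapped. The log2 fold change was -0.06, with a 95% interval of -0.20 to 0.08 (limma, adjusted p = 0.452). Scaled to equal FPKM sums Hmgcs1 was lower with SGFD (-0.19, adjusted p = 0.0276), whereas after median-ratio scaling, quantile normalization or removal of the length trend its fold change was above 0.

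Idi1, the isomerase that turns isopentenyl diphosphate into dimethylallyl diphosphate, had the lowest fold change of the 8 as reported, though not after quantile normalization, where Srebf2 (-0.427) and Sqle (-0.381) were lower than Idi1 (-0.333), nor without SGFD replicate 2, where Sqle (-0.466) was lower than Idi1 (-0.455). It had 5.26, 4.29 and 6.015 FPKM with SGFD and 8.38, 8.14 and 7.745 FPKM with CD. Again all SGFD libraries lay below all CD libraries, and the SGFD libraries were the more widely spread. The means were 5.19 ± 0.864 FPKM with SGFD and 8.09 ± 0.319 FPKM with CD (SD, n = 3 each), a ratio of 0.642, and the log2 fold change was -0.56 (SE 0.10; limma, adjusted p = 0.000904). It stood at percentile 8.9 of all tested genes. SGFD replicate 2 rested on 123 fragments, with an exact Poisson 95% interval of 102.2 to 146.8 that covers counting error only, and CD replicate 3, the lowest of its diet, on 209 fragments with an interval of 181.6 to 239.3. Both intervals depend on the factor per gene: these fragments imply a length of 1482 bases for Idi1, whose longest annotated transcript has 3027. After quantile normalization Idi1 still passed (adjusted p = 0.0293). The paralog Idi2 was at 0 in every library.

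Fdps makes farnesyl diphosphate, the last intermediate shared by sterols, ubiquinone, dolichol and prenylated proteins. It was the gene that went the other way, with 35.2, 32.5 and 33.6 FPKM with SGFD and 24.5, 27.2 and 27.1 FPKM with CD. The lowest SGFD value was above the highest CD value. The means were 33.8 ± 1.37 FPKM with SGFD and 26.25 ± 1.53 FPKM with CD (SD, n = 3 each), a ratio of 1.29, and the log2 fold change was 0.35 (SE 0.06; limma, adjusted p = 0.000481) and stood at percentile 93.3 of all tested genes. The rise was 0.21 with libraries scaled to equal FPKM sums (adjusted p = 0.00651). Fdps shares 1124 annotated exon bases with Gm43738 on the same strand. Gm43738 is not among the deposited genes, and how fragments from the shared bases were counted is not known.

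Fdft1, squalene synthase, makes the first product committed to sterols. It had 2.76, 3.41 and 3.36 FPKM with SGFD and 3.61, 3.81 and 3.94 FPKM with CD. The diets did not overlap, but the difference did not pass (log2 fold change -0.20, 95% interval -0.40 to 0.00; limma, adjusted p = 0.0809). It did pass with library weights (-0.30, adjusted p = 0.00362), without the variance trend (adjusted p = 0.0488) or with libraries scaled to equal FPKM sums (-0.31, adjusted p = 0.0135), and after quantile normalization the fold change was 0.06. Fdft1 shares 774 exon bases with Ctsb, the cathepsin B gene on the opposite strand, which was at 44.9 ± 3.56 FPKM with SGFD and 37.3 ± 1.02 FPKM with CD. The library kit was stranded per the labels' protocols, which could keep the strands apart. The strand setting of the counting is not given in the sources used here, so reads from the shared bases cannot be assigned. The same holds for 557 exon bases that Hmgcs1 shares with Gm48342 and 323 that Idi1 shares with Gm48574. Both Gm48342 and Gm48574 lie on the opposite strand, and neither is among the deposited genes.

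Sqle, squalene epoxidase, is the first oxygen-requiring step of the pathway and another of its control points. Its values were 13.5, 13.3 and 14.98 FPKM with SGFD and 19.3, 21.7 and 19.2 FPKM with CD. There was no overlap between the diets. The means were 13.95 ± 0.893 FPKM with SGFD and 20.1 ± 1.43 FPKM with CD (SD, n = 3 each), and the log2 fold change was -0.495 (SE 0.07; limma, adjusted p = 0.000205). With the length trend removed it was -0.30 (adjusted p = 0.00801).

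Lss, lanosterol synthase, closes the ring system of the sterols. It was the least abundant of the 8, with 2.335, 2.71 and 2.72 FPKM with SGFD and 4.15, 3.56 and 3.35 FPKM with CD. The diets did not overlap, although CD replicate 3 was nearer to the SGFD libraries than CD replicate 1 was. The log2 fold change was -0.38 (SE 0.10; limma, adjusted p = 0.00585). This call was lost after quantile normalization (-0.11, adjusted p = 0.383) and with the length trend removed (-0.06, adjusted p = 0.657). The longest annotated transcript of Lss has 6992 bases, and in the bin of longest transcripts that it belongs to, the median log2 fold change of all genes was also -0.38.

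For 7 of the 8 genes the diets did not overlap, 6 lower and 1 higher with SGFD; of all tested genes 65.2% did not overlap, 45.5% lower and 19.6% higher. The order of mean levels differed between the diets in its middle. With SGFD, Hmgcs1 (14.0 to 15.2 FPKM), Insig1 (13.7 to 14.4 FPKM) and Sqle (13.3 to 14.98 FPKM) overlapped, whereas with CD Hmgcs1 (14.5 to 16.1 FPKM) lay below Insig1 (18.0 to 20.3 FPKM) and Sqle (19.2 to 21.7 FPKM), which overlapped each other. In both diets Srebf2 came first, Fdps second and Idi1 below the group of 3, without overlap. Fdft1 and Lss were lowest, Lss below Fdft1 in every SGFD library, while in CD replicate 1 Lss was the higher of the pair.

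**Figure D2:**
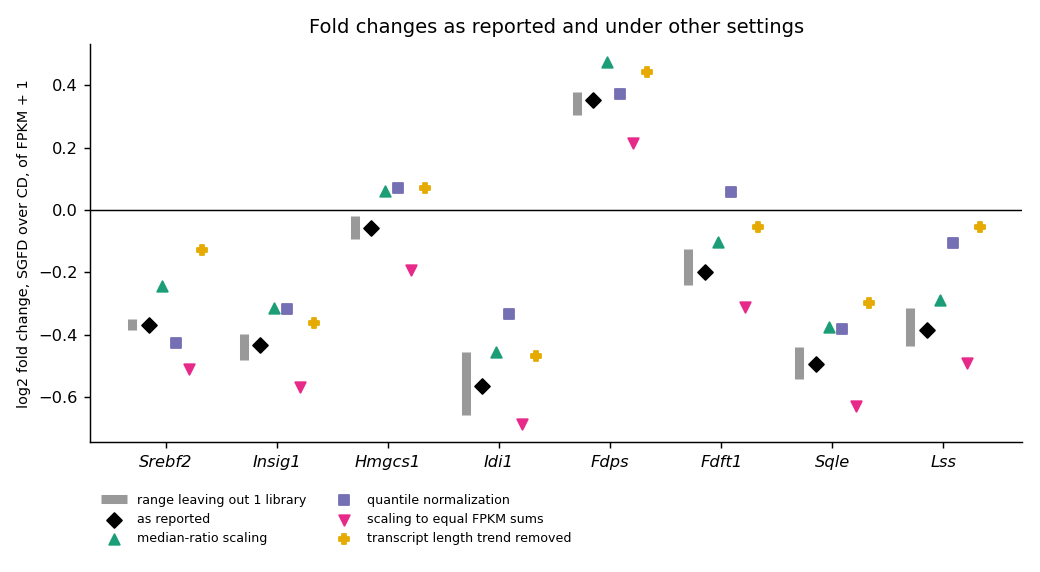
Log2 fold change of FPKM + 1, SGFD over CD (y axis), of the 8 genes as reported (black diamonds), under 4 other scalings (coloured symbols) and as a range when 1 library is left out (grey bars). Srebf2, Insig1, Idi1 and Sqle stay below 0 and Fdps above 0 throughout; Hmgcs1 and Fdft1 cross 0, and Lss comes near it with the length trend removed.

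Ratios of enzymes within a library do not depend on a scaling of whole libraries. The ratio of Fdps to Idi1, which act in succession, was 6.69, 7.56 and 5.59 in the SGFD libraries and 2.92, 3.34 and 3.50 in the CD libraries, so its mean was 2.03-fold higher with SGFD. The ratio of Fdft1 to Fdps, the next step, was 0.0784, 0.105 and 0.0998 with SGFD and 0.147, 0.140 and 0.1455 with CD. Both ratios kept the diets apart. Idi1 over Hmgcs1 was also lower in each SGFD library, with means of 0.356 ± 0.0704 with SGFD and 0.531 ± 0.0415 with CD (SD, n = 3 each). Sqle over Fdft1 averaged 4.42 ± 0.499 with SGFD and 5.31 ± 0.411 with CD, and Lss over Sqle averaged 0.186 ± 0.0158 with SGFD and 0.185 ± 0.0273 with CD (SD, n = 3 each), with overlap in both. After quantile normalization, which is not a scaling by 1 factor, the difference in log2 fold change was -0.439 for Sqle over Fdft1, -0.315 for Fdft1 over Fdps and -0.402 for Idi1 over Hmgcs1. These ratios are given as a description, with no test.

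**Figure D3:**
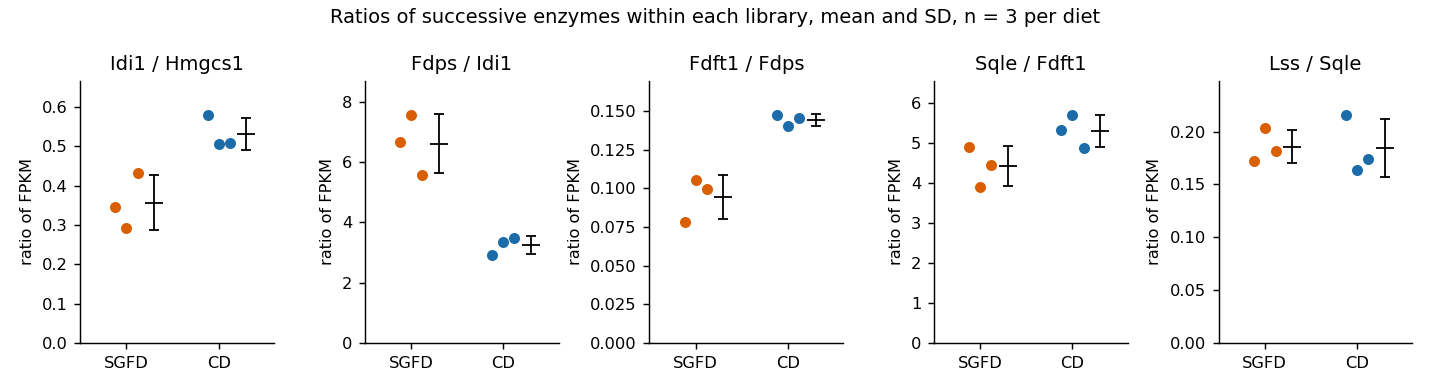
Ratio of the FPKM of each enzyme to that of the preceding one of the set (y axes, from 0) in each library, 3 with SGFD at left and 3 with CD at right, with mean and SD. Fdps over Idi1 is higher in every SGFD library, Idi1 over Hmgcs1 and Fdft1 over Fdps are lower, and the last 2 ratios overlap.

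Over the whole route from acetyl-CoA to cholesterol, 21 enzymes were tested, 6 of them among the 8 genes. Of the 21, 10 fell and 5 rose, against 41.8% and 17.7% of all tested genes, and their median log2 fold change was -0.25; of the 15 not yet described 7 fell and 4 rose. Acat2, Mvk, Pmvk, Fdps and Ebp rose. The counts depended on scaling, with 6 falling and 5 rising after median-ratio scaling, 5 falling and 7 rising after quantile normalization and 13 falling and 2 rising with equal FPKM sums. Of the 8 enzymes before squalene synthase 4 rose and 2 fell, and of the 13 from squalene synthase on 1 rose and 8 fell; this split was made after the values were seen.

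Among the early enzymes, mevalonate kinase (Mvk) had 9.05, 7.63 and 8.84 FPKM with SGFD and 6.14, 5.91 and 6.25 FPKM with CD, a log2 fold change of 0.42 (limma, adjusted p = 0.00127). Phosphomevalonate kinase (Pmvk) was at 12.15 ± 1.18 FPKM with SGFD and 9.60 ± 0.446 FPKM with CD (limma, adjusted p = 0.00674), a call lost with equal FPKM sums (adjusted p = 0.0729). Among the late enzymes Cyp51, lanosterol demethylase, had 8.41, 8.45 and 9.48 FPKM with SGFD and 12.7, 12.5 and 12.4 FPKM with CD, a log2 fold change of -0.47 (limma, adjusted p = 0.00025). Acat2 and Ebp rose by 0.26 and 0.21 on the log2 scale, but the call for Acat2 was lost without the filter (adjusted p = 0.0688), with equal FPKM sums (0.229), without SGFD replicate 2 (0.066), SGFD replicate 3 (0.0635), CD replicate 1 (0.11) or CD replicate 3 (0.0981), and that for Ebp with equal FPKM sums (0.322) or without SGFD replicate 1 (0.0688), SGFD replicate 3 (0.0507) or CD replicate 3 (0.0592).

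**Figure D4:**
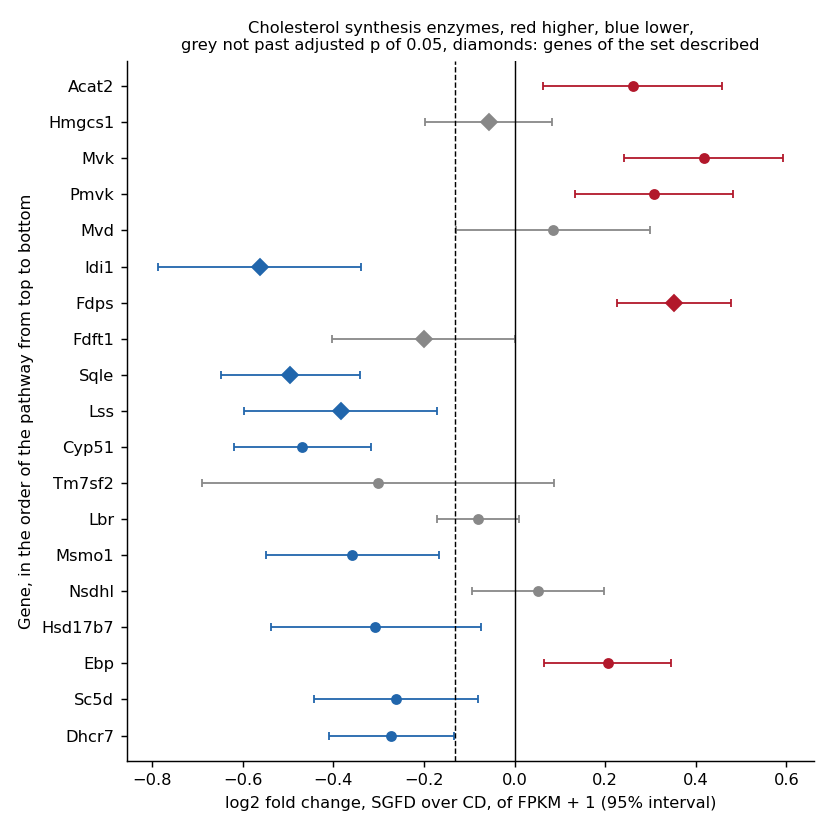
Log2 fold change of FPKM + 1, SGFD over CD, with its 95% interval (x axis) for 19 of the 21 enzymes in pathway order from top to bottom; diamonds are genes of the set described, the solid line is 0 and the dashed line the median of all tested genes, -0.13. Acat2, Mvk, Pmvk and Fdps in the upper part and Ebp in the lower part are higher with SGFD. Most enzymes from Sqle down are lower.

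Longer transcripts had lower fold changes across all genes, with a median log2 fold change of 0.13 in the bin of shortest and -0.38 in the bin of longest annotated transcripts. The longest annotated transcript of the enzymes that rose had 1194 bases for Pmvk, 1743 for Ebp, 2250 for Acat2, 2380 for Mvk and 2953 for Fdps. Mvd, at 1833 bases, and Nsdhl, at 2168, did not pass, and Idi1, at 3027, fell. Dhcr7, at 2815 bases and so shorter than Fdps, fell as well (log2 fold change -0.27, limma, adjusted p = 0.00367). These annotated lengths, also used to remove the trend, may not be those behind the FPKM. The recovered fragments imply 1511 bases for Fdps, 1482 for Idi1 and 2842 for Sqle, whose longest annotated transcript has 4467. Implied lengths depend on the factor per gene. For Insig1 and Lss the implied lengths, 2738 and 7097, were near the annotated 2697 and 6992. The part of transcript length in these results was not tested beyond the removal of its trend. With the length trend removed, 6 enzymes fell and 5 rose.

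Of 14 genes that control the SREBPs 5 fell and 2 rose, so that 7 of 14 passed, against 59.4% of all tested genes. Srebf2 and Insig1, already described, are among the 5 that fell. The lowest fold change of the list was that of Rnf145, a sterol-responsive ubiquitin ligase of the endoplasmic reticulum, which had 5.30, 5.52 and 4.71 FPKM with SGFD and 10.3, 9.92 and 10.2 FPKM with CD, a log2 fold change of -0.85 (SE 0.075; limma, adjusted p = 1.29e-05). Srebf1, the gene of the related factor of fatty acid synthesis, was at 20.7 ± 0.466 FPKM with SGFD and 24.6 ± 1.14 FPKM with CD (SD, n = 3 each; limma, adjusted p = 0.00346), and Insig2 at 3.04 ± 0.271 FPKM with SGFD and 3.94 ± 0.312 FPKM with CD (adjusted p = 0.0174). Both calls were lost after median-ratio scaling (adjusted p = 0.0919 and 0.0815) and with the length trend removed (0.436 and 0.0547). The call for Insig2 was also lost after quantile normalization (0.798) and without SGFD replicate 1 (0.0588) or CD replicate 1 (0.0791). Scap and the protease genes Mbtps1 and Mbtps2 did not pass, with log2 fold changes of -0.115, -0.05 and -0.04; all 3 were above 0 with median-ratio scaling and with the length trend removed, where Mbtps1 passed (0.269, adjusted p = 0.00125). The 2 genes that rose, Vcp and Ubxn1, serve extraction of proteins from the membrane in general, and neither rise passed after quantile normalization (adjusted p = 0.83 and 0.118).

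Of 9 tested genes among other known SREBP2 targets 6 fell and 2 rose, against 41.8% and 17.7% of all tested genes. Stard4, a soluble sterol carrier, had 11.1, 11.4 and 11.1 FPKM with SGFD and 18.2, 18.9 and 17.2 FPKM with CD, a log2 fold change of -0.65 (SE 0.06; limma, adjusted p = 1.7e-05). It was lower in every SGFD library. With the length trend removed it was -0.41 and still passed (adjusted p = 0.000354). Acss2, which makes acetyl-CoA from acetate, fell by 0.39. Tmem97, a membrane protein that binds sterols, went the other way, at 44.2 ± 6.09 FPKM with SGFD and 29.9 ± 3.83 FPKM with CD (SD, n = 3 each; limma, adjusted p = 0.00149), and so did the desaturase Fads2, whose call was lost with equal FPKM sums (adjusted p = 0.0727). After median-ratio scaling, 3 of the 9 fell and 2 rose. Npc1l1, at 0 in every library, and Pnpla3 were below the filter.

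LXR receptors induce sterol efflux when sterols are high. Of 10 tested genes of LXR and efflux 5 fell and 1 rose, so that 6 of 10 passed, close to the 59.4% of all tested genes. The efflux pump gene Abcg1 had 8.51, 8.05 and 9.10 FPKM with SGFD and 17.3, 18.5 and 17.1 FPKM with CD, a log2 fold change of -0.965 (SE 0.07; limma, adjusted p = 2.36e-06) at percentile 0.8 of all tested genes. Abca1 was at 1.42 ± 0.294 FPKM with SGFD and 3.18 ± 0.11 FPKM with CD (SD, n = 3 each; limma, adjusted p = 0.000145), and Mylip, a ubiquitin ligase gene, at 5.72 ± 0.603 FPKM with SGFD and 9.36 ± 1.07 FPKM with CD (adjusted p = 0.000393). These 3 passed under every setting in which they were tested, Abca1 with values of -1.18 to -0.34. Scarb1, the HDL receptor gene, rose to 27.4 ± 0.216 FPKM with SGFD, against 21.6 ± 0.365 FPKM with CD. After median-ratio scaling 3 fell and 1 rose. Macrophages are rich in Abca1 and Abcg1, and the macrophage list above, summing to 5.05 to 5.49 FPKM with SGFD and 20.8 to 22.4 FPKM with CD, differed between the diets in the same libraries; its part in this result was not tested.

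**Figure D5:**
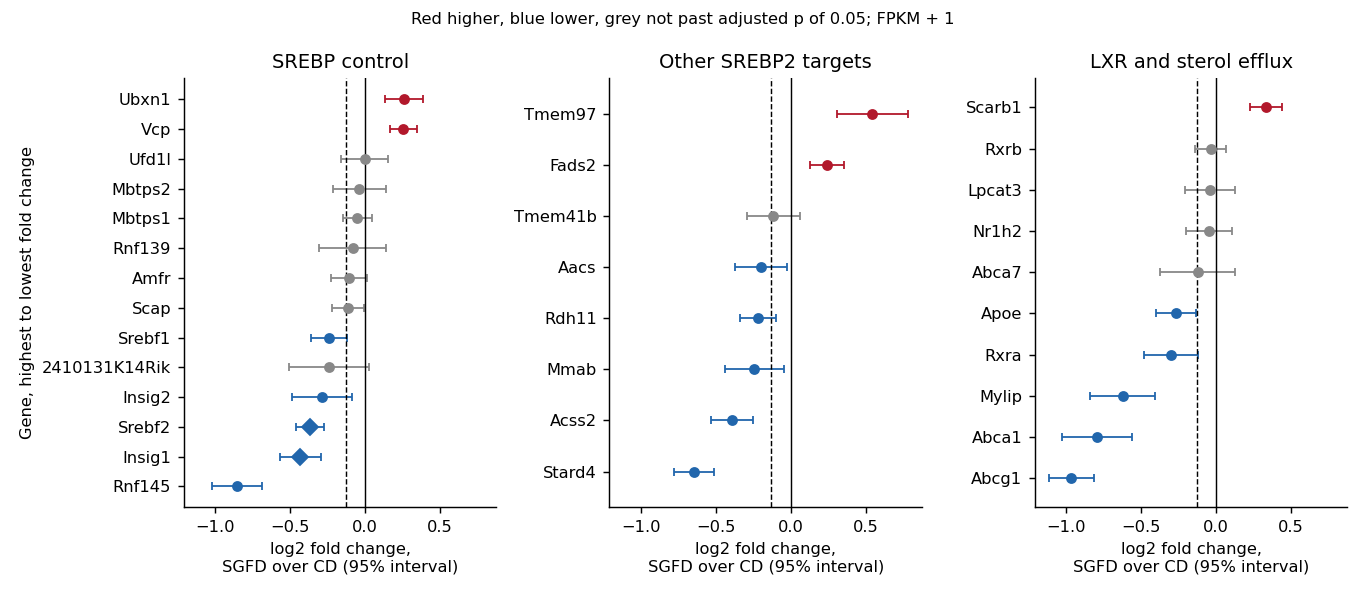
Log2 fold change of FPKM + 1, SGFD over CD, with its 95% interval (x axes) for 32 of the 33 tested genes of 3 lists, each from highest to lowest; diamonds are Srebf2 and Insig1, the solid line is 0 and the dashed line the median of all tested genes. Rnf145, Stard4, Abcg1, Abca1 and Mylip lie furthest to the left, and Tmem97 and Scarb1 to the right.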

How the data were processed

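Each deposited table holds 1 value per gene symbol and library. No source used here names the unit. The authors' values are taken as FPKM. Of genes above 0, 99.98% gave whole fragments in all 6 libraries, within 0.02. This followed division by 1 step per gene and 1 factor per library. Any count scaled by such factors would give whole fragments too, so the check cannot tell FPKM from other units of that kind. These fragments are fixed up to a factor per gene. The submitters' processing notes name fastp, HISAT2, StringTie, GRCm38 and mm10, without versions or roles. Per the labels' protocols, the library kit was stranded.

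Testing took genes that reached 1 FPKM in 3 or more of 6 libraries, with limma 3.58.1 (R 4.3.3) on log2(FPKM + 1), with trend and robust settings, two-sided, Benjamini-Hochberg adjusted over all tested genes, at a threshold of 0.05; this scale understates changes of low genes. The limma fit, but not the other steps, was tested on simulated data in which few genes were changed. The 27 rows named by dates stayed in and are not named. The longest GENCODE M21 transcript gave lengths for 99.3% of tested genes. Alternatives were no filter or 5 FPKM, pseudocounts of 0.1 and 0.01, 3 scalings, other variance models, library weights, a replicate block, removal of a length trend, an adjusted p of 0.01 and leaving out each library. The genes and lists were chosen with earlier results of these data known. Other genes named are up to 6 of smallest p per list, and some that did not pass or moved opposite to their list; some genes that enter the counts are not reported here by name. Promoters and positions come from RefSeq (GRCm38.p6).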

Additional observations from a re-analysis of the deposited data

How the results depend on the processing

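Srebf2, Insig1, Idi1, Sqle and Fdps kept their direction and passed the threshold under all alternatives run. Hmgcs1 had log2 fold changes of 0.061 after median-ratio scaling, 0.069 after quantile normalization and 0.07 with the length trend removed, and -0.192 with equal FPKM sums, where it passed. Fdft1 had 0.058 after quantile normalization, and passed with equal FPKM sums (-0.311), without the variance trend (-0.2) and with library weights (-0.304). Lss did not pass after quantile normalization (-0.107) or with the length trend removed (-0.056). Fdft1 and Lss were not tested at 5 FPKM. The cause was not tested in any of these. Of all genes, 29.7% of those called were higher; after median-ratio scaling 49.6%, quantile normalization 47.0%, equal FPKM sums 14.0% and length removal 54.1%. Calls in the list of SREBP control numbered 11 with equal sums and 4 after quantile normalization, against 7; other SREBP2 targets 5 after median-ratio scaling, quantile normalization or length removal, against 8; isoprenoid branches 7 with library weights, against 4; transport and storage 7 after median-ratio scaling, 8 after quantile normalization and 9 to 15 leaving out 1 library, against 14; fatty acid synthesis 8 with equal sums and 2 with length removal, against 5. After quantile normalization the difference in log2 fold change was 0.706 for Fdps over Idi1, -0.315 for Fdft1 over Fdps and -0.439 for Sqle over Fdft1, against 0.915, -0.552 and -0.295. Signs also turned for Mvd (-0.035, equal sums), Vcp (-0.009, quantile), Scap (0.007, median ratio; 0.064, length), Mbtps1 (0.071, median ratio; 0.269, length, where it passed), Mbtps2 (0.076, median ratio; 0.157, quantile; 0.182, length; -0.106 to 0.015 leaving out 1 library, above 0 without SGFD replicate 1) and Fasn (0.108, length).

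With the replicate number as a block 5793 genes passed, against 6313, and the calls of the 8 genes were as without it. Residuals of same-numbered libraries correlated at -0.007, -0.227 and -0.133, so no library correlated best with its own number and the numbers were not taken as pairs. Idi1, Fdft1 and Lss rest on the fewest fragments, 123 to 546 per library.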

Other observations

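Of 18 tested genes that move and store sterols 10 fell and 4 rose, against 41.8% and 17.7% of all tested genes, and after median-ratio scaling 3 fell and 4 rose. Npc2, which takes cholesterol out of lysosomes, rose to 83.2 ± 5.33 FPKM with SGFD, against 62.7 ± 2.79 FPKM with CD (SD, n = 3 each; limma, adjusted p = 0.000171). Lrp1, a lipoprotein receptor gene, was at 1.97 ± 0.33 FPKM with SGFD and 1.04 ± 0.135 FPKM with CD (limma, adjusted p = 0.00191), and Soat2, which esterifies cholesterol, at 3.36 ± 0.529 FPKM with SGFD and 2.15 ± 0.507 FPKM with CD (adjusted p = 0.0105). Gramd1b and Osbpl5, genes of sterol and lipid transfer between membranes, fell, Gramd1b at 2.81 ± 0.779 FPKM with SGFD and 5.10 ± 0.429 FPKM with CD, and Osbpl5 at 3.46 ± 0.171 FPKM with SGFD and 5.71 ± 0.327 FPKM with CD. Nceh1, which hydrolyses cholesterol esters, fell to 15.05 ± 0.412 FPKM, against 20.0 ± 0.639 FPKM with CD.

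Of 14 tested genes of the branches that use the same isoprenyl diphosphates 4 fell and the other 10 did not pass, against 59.4% of all tested genes that passed in either direction; 7 passed with library weights, and 3 rose and 2 fell after median-ratio scaling. Fnta, which encodes an alpha subunit of prenyltransferases, was at 34.95 ± 0.477 FPKM with SGFD and 45.75 ± 1.38 FPKM with CD (limma, adjusted p = 7.18e-05). Coq2, which attaches the side chain of ubiquinone, was at 35.8 ± 3.665 FPKM with SGFD and 43.9 ± 1.31 FPKM with CD. Of 11 tested genes of fatty acid synthesis 4 fell and 1 rose, against 41.8% and 17.7% of all tested genes. Fasn had 27.3, 27.2 and 26.4 FPKM with SGFD and 34.3 FPKM in each CD library. Acaca was at 7.83 ± 0.171 FPKM with SGFD and 11.2 ± 0.532 FPKM with CD. With the length trend removed Fasn (limma, adjusted p = 0.105) and Acaca (0.658) did not pass. Of the 11 genes, 1 other still fell and 1 rose under that setting.

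The 5 tested genes whose values over 6 libraries, less their CD mean, were nearest to those of Srebf2 were Mkl1, Crkl, Rgs18, Mef2a and Stat5b, with root mean square differences of 0.0109 to 0.0218 on the log2 scale. Their log2 fold changes were -0.378 to -0.348, against -0.369 for Srebf2. This measure largely follows likeness of fold change, and shared regulation was not tested. Of the other 7 genes described, Lss was nearest to Srebf2 (rank 578) and Fdps farthest (rank 9849). The genes nearest to the median profile of the 6 enzymes were Ptpn22, Srp54c, Mlycd, BC030336 and Lpar5, at 0.0151 to 0.029.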
